A study of Mus musculus with 4 samples.

Results

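The genes described here are the collagens, laminins, integrins and matrix proteoglycans of the array, in the livers of mice that make the SV40 oncoproteins and of mice that do not. They were chosen by gene symbol: collagen chains, laminin chains, integrin subunits, Fn1, Bgn, Dcn, Lum, nidogens, Sparc, fibrillins and thrombospondins, wherever the platform annotation gives a probe set 1 such symbol. The choice took in 103 of the 12422 probe sets that are not array controls, for 70 genes. A probe set annotated to several genes was left out, which removed the one that stands for Thbs1 and Pald1 together.

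Liver RNA came from male mice of the hybrid strain B6SJL, 50 to 66 days old, that had eaten a diet of 65% protein and 10% carbohydrate freely for 4 weeks after weaning. The PEPCK-TAg group carried the transgene of that name, which makes the SV40 large T and small t oncoproteins, and the wild-type group carried none; diet, strain, sex and age range were the same. PEPCK is phosphoenolpyruvate carboxykinase, a gluconeogenic enzyme whose promoter is active in hepatocytes and is induced when carbohydrate is scarce. Each group had 2 arrays (Affymetrix MG_U74Av2), and since nothing in the labels ties them to separate animals, the p-values speak only of the spread between these arrays. Whole liver was used, so fewer cells of a type and less RNA per cell cannot be told apart.

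Stromal matrix is built from fibrillar collagens, whose bundles bear load, and from small proteoglycans and glycoproteins that space and tether them; in liver, stellate cells and portal fibroblasts make much of it. Basement membranes are sheets in which trimers of laminin alpha, beta and gamma chains and a network of type IV collagen are linked by nidogens. Integrins, each a pair of an alpha and a beta subunit, are the receptors by which cells hold on to both. The hepatic sinusoid is known for lacking a continuous basement membrane, while vessels and bile ducts have one.

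Median signals ran from 66.6 to 84.7 and were higher in the PEPCK-TAg pair. Wild-type 1 and PEPCK-TAg 1 were scanned on 1 day with 1 scanner type. Wild-type 2 was read by another scanner type, PEPCK-TAg 2 was stained on another fluidics station, and no chip lot held both groups, so lot and group cannot be told apart. Hepatocyte transcripts marked the tissue as labelled: the 7 measured hepatocyte markers summed to signals of 80239 and 85631 in wild-type liver, against 45341 and 59979 with the transgene, and 2 of the 7 fell (Ttr and Tat).

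Of the 103 probe sets, 58 (42 genes) were bright enough to test, that is above a signal of 41.3 on at least 2 of the 4 arrays. In PEPCK-TAg liver 5 of these 58 rose and 4 fell past limma's adjusted p of 0.05, or 8.62% and 6.90%, where 9.1% and 3.4% of all 7877 probe sets tested rose and fell. The share that rose was near that background. The 5 rises were Lama5, Itgb2, Nid1, Lamb2 and Col3a1, and the 4 falls Lama3, Bgn, Lama1 and Col18a1. By size alone, 8 members were 2-fold or more higher and 8 lower with no overlap between the groups, against 14.7% and 5.87% of all probe sets tested. The members' median log2 difference was -0.046, beside 0.051 over all probe sets tested. Limma put 16 of the 58 members at an unadjusted p under 0.05, beside 2394 of all 7877 probe sets tested. Without any filter on dim probe sets, none of these 9 calls held and limma called 1 other member probe set (Itga4, log2 difference 0.59, adjusted p = 0.0379, with both wild-type arrays at the floor). Calls depended on both PEPCK-TAg arrays: without PEPCK-TAg 1 or without PEPCK-TAg 2, none of these 9 calls held on the same 58 probe sets. Calls over all probe sets became fewer as well. The fluidics station as a block, which takes PEPCK-TAg 2 out of the contrast, also ended every call, among the members and among all 7877 probe sets tested. The loss was therefore not particular to the members.

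**Figure D1:**
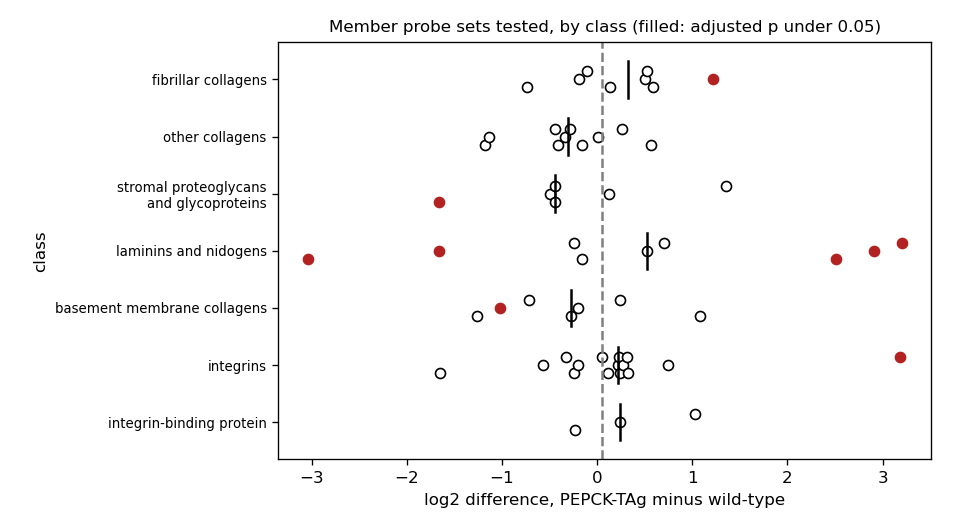
Log2 difference (x axis, PEPCK-TAg minus wild-type, 2 arrays a group) of each of the 58 member probe sets tested, by class; filled points passed an adjusted p of 0.05, short lines are class medians and the dashed line is the median of all 7877 probe sets tested. Laminins and nidogens spread from -3.04 to 3.20, while the other collagens stay between -1.18 and 0.56.

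**Figure D2:**
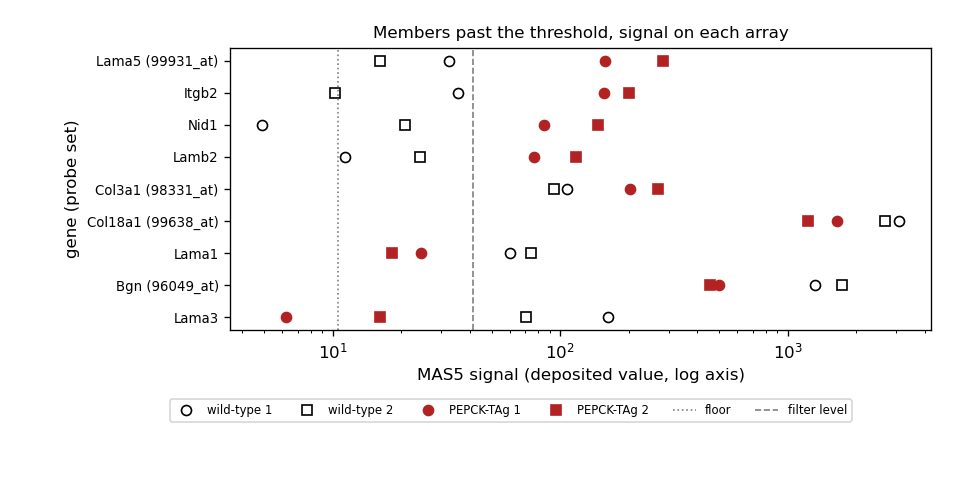
Deposited MAS5 signal on each of the 4 arrays (log axis) for the 9 member probe sets past the threshold; open symbols are wild-type and filled symbols PEPCK-TAg, the dotted line is the floor of 10.6 and the dashed line the filter level of 41.3. In each row the wild-type and PEPCK-TAg arrays occupy separate ranges.

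Basement membrane genes changed in both directions. Of the 9 laminin and nidogen probe sets tested, 3 rose (Lama5, Lamb2 and Nid1), 2 fell (Lama1 and Lama3) and 4 did not pass. All 5 that passed had reached the filter level in 1 group only, so the test could hardly have met them without a difference. Their count is therefore a description of these arrays and no measure of how laminins as a class behaved.

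The 250 bases upstream of the annotated start of the 3 rising genes are printed from RefSeq (GRCm38.p6), on the gene's strand. They were chosen because these basement membrane members were called higher, and shared regulation was not tested. Capitals mark 4 searched motifs on either strand, namely the GC box GGGCGG, the CCAAT box CCAAT, the TATA box TATAAA, and the E2F sites TTTCCCGC and TTTGGCGC. The windows are chr2:180225860-180226109 (minus strand), chr9:108479612-108479861 (plus strand) and chr13:13437352-13437601 (plus strand).
Lama5: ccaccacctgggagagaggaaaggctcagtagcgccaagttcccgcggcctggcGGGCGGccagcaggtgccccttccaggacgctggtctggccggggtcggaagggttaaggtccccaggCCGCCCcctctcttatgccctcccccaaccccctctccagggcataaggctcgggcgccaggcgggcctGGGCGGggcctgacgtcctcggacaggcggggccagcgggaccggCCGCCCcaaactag
Lamb2: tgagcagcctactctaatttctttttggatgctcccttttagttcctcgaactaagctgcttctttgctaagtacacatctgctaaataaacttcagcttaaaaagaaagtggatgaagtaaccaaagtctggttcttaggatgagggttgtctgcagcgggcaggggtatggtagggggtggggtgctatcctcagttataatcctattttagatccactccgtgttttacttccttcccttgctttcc
Nid1: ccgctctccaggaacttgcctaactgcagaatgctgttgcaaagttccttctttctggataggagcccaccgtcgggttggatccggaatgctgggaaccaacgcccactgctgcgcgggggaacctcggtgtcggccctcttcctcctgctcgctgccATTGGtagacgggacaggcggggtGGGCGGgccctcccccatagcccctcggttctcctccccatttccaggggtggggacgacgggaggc
The windows differ in base content and in motif matches. That of Lama5 is 72.4% G and C with 4 GC boxes, that of Nid1 is 64.4% G and C with 1 GC box and 1 CCAAT box, and that of Lamb2 is 43.6% G and C with 0 matches to any of the motifs. Among the 32851 windows of this length in the table, whose median G and C content is 52.4%, 32.7% hold a GC box, 33.8% a CCAAT box, 12.4% a TATA box and 1.3% an E2F site. A match describes letters and not a bound site, and windows were found for 45 of the 70 member genes.

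Lama5 encodes the laminin alpha5 chain of most mature epithelial and vascular basement membranes. Its brighter probe set read 32.5 and 16.2 in the wild-type pair, against 157.5 and 282.8 in the PEPCK-TAg pair. Every PEPCK-TAg value was above every wild-type value, a 9.19-fold rise (log2 difference 3.20 ± 0.48 SE, adjusted p = 0.00902, n = 2 arrays a group). A further Lama5 probe set read 24.1 and 42.3 against 45.3 and 59.9, in the same order but with a log2 difference of 0.70 ± 0.45 SE (adjusted p = 0.340). The size of the rise thus differed between the probes that stand for the gene.

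Lamb2 is the beta2 chain that pairs with alpha5 in laminins of vessels and of the glomerulus. Wild-type signals were 11.3 and 24.2 and PEPCK-TAg signals 76.7 and 116.8, with no overlap, a 5.72-fold rise (2.52 ± 0.52 SE, adjusted p = 0.0258). Nid1, the linker of laminin to type IV collagen, went from 4.9 and 20.8 to 85.0 and 146.5, at least 7.51-fold (2.91 ± 0.51 SE, adjusted p = 0.0158). Wild-type 1 lay below the floor of 10.6 for Nid1, which makes that fold a lower bound. When the floor was raised from the 20th to the 40th percentile of all signals, Lama5, Lamb2 and Nid1 gave smaller log2 differences of 2.35, 1.20 and 1.43. In the pair scanned on 1 day they were 2.27, 2.76 and 3.0.

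Lama1 and Lama3 moved the other way. Lama1, the alpha1 chain typical of embryonic basement membrane, read 60.1 and 74.2 without the transgene, against 24.5 and 18.3 with it, 3.16-fold lower (-1.66 ± 0.41 SE, adjusted p = 0.0472). Lama3, the alpha3 chain of the laminin that anchors epithelia, read 161.9 and 71.0 against 6.2 and 16.1, at least 8.22-fold lower (-3.04 ± 0.54 SE, adjusted p = 0.0158). Neither gene's groups overlapped, although the wild-type arrays differed from each other for Lama3 by more than they did for Lama1. The higher floor ended both calls (-0.69, adjusted p = 0.0869, and -1.38, adjusted p = 0.0942). Lama1 also lost its call with the lower floor at the 10th percentile (adjusted p = 0.0564), with the scanner type as a block (adjusted p = 0.112), and without wild-type 1 or 2 (adjusted p = 0.0670 and 0.171 on the same probe sets). Lama3 gave -2.44 without wild-type 1. Its probe set carries the suffix that Affymetrix uses for probes shared among transcripts.

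The other laminin chains showed no change past the threshold. Lamc1, the gamma1 chain that most laminin trimers contain, read 171.4 and 109.2 against 159.1 and 84.4 (log2 difference -0.24 ± 0.41 SE, adjusted p = 0.728). Lamb1, the beta1 chain, read 62.4 and 29.4 against 61.7 and 61.4 (0.52 ± 0.46 SE, adjusted p = 0.486), and Lama4 of vessel walls 71.6 and 76.5 against 56.5 and 77.9 (-0.16 ± 0.34 SE, adjusted p = 0.789). Their groups overlapped. Nid2 read 37.5, 11.7, 90.6 and 14 in the order wild-type 1, wild-type 2, PEPCK-TAg 1, PEPCK-TAg 2 and went untested, as did Lama2 and Lamb3. Dimmer probe sets of the other chains also went untested. That of Lamc1 read 10.4 and 15 against 12.3 and 12.1, near the floor of 10.6. That of Lama4 read 5.2 and 6.6 against 5.7 and 5.8, below the floor. That of Lamb1 read 27.3 and 23.3 against 40.1 and 30, without overlap. The probe sets of Lamc1 thus differed widely in level, and which of them reads the gene was not tested.

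**Figure D3:**
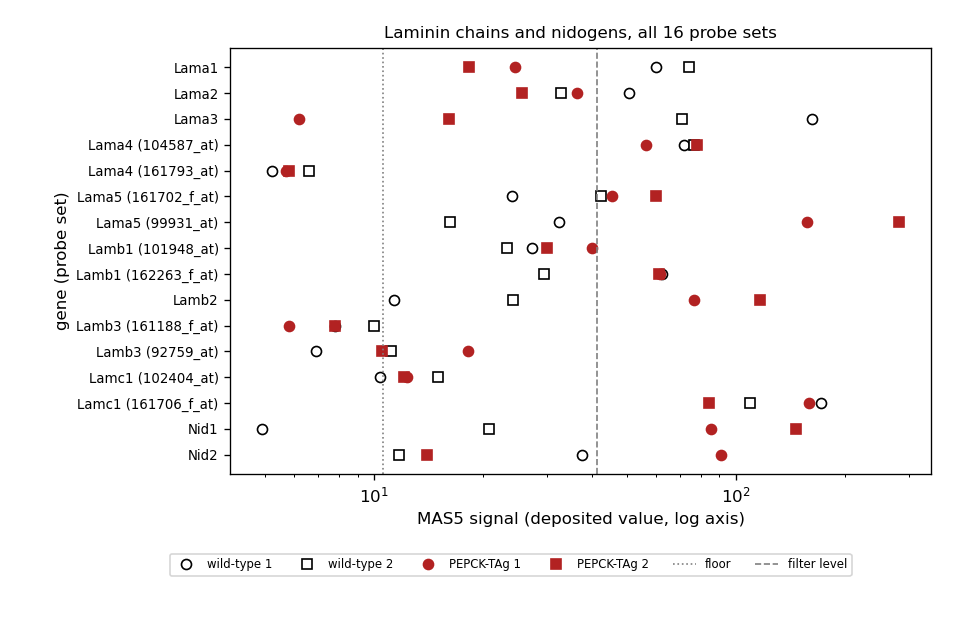
Deposited MAS5 signal (log axis) of all 16 laminin and nidogen probe sets on the 4 arrays, tested or not; open symbols are wild-type, filled symbols PEPCK-TAg, dotted line the floor of 10.6, dashed line the filter level of 41.3. Lama5, Lamb2 and Nid1 sit to the right in PEPCK-TAg liver, Lama1 and Lama3 to the left, and the tested probe sets of Lamc1, Lamb1 and Lama4 overlap. A dim Lamb1 probe set that was not tested also sits to the right.

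Among the basement membrane collagens, 1 of 7 probe sets tested passed, a fall of Col18a1. Col18a1 encodes type XVIII collagen, the parent of endostatin, which hepatocytes make in quantity. Its brightest probe set read 3090.5 and 2670.0 against 1637.5 and 1228.5, 2.03-fold lower with no overlap (-1.02 ± 0.25 SE, adjusted p = 0.0430). The call was lost under quantile normalization (adjusted p = 0.0738), with the higher floor (adjusted p = 0.0527), without a variance trend (adjusted p = 0.0801) and without wild-type 1 (adjusted p = 0.0749 on the same probe sets). The remaining 3 Col18a1 probe sets that were tested gave -0.72, -0.28 and -0.20, all lower but not past the threshold.

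Type IV collagen, the network former, moved unequally. Col4a1 read 285.3 and 247.6 in wild-type liver, against 774.5 and 411.8 with the transgene, 2.12-fold higher with no overlap, at an adjusted p of 0.0917 (log2 difference 1.09 ± 0.35 SE). Without wild-type 1 Col4a1 passed where probe sets were chosen again (adjusted p = 0.0268) and not on the same probe sets (adjusted p = 0.0581). Its partner chain Col4a2 read 371.0 and 217.1 against 421.5 and 267.5, overlapping groups (0.24 ± 0.37 SE, adjusted p = 0.692). The pair lies head to head on chromosome 8 with RefSeq starts at 11312826 (Col4a1, minus strand) and 11312805 (Col4a2, plus strand) in GRCm38.p6. These starts are 21 bases from each other, and by these coordinates the annotated 5' ends overlap. Whether the differences of these neighbours differ from each other was not tested. Col15a1, a basement membrane collagen of vessels, read 72.0 and 81.1 against 50.6 and 20.1 (-1.26 ± 0.51 SE, adjusted p = 0.156). Leaving out PEPCK-TAg 1 turned its difference to -1.93, and leaving out PEPCK-TAg 2 to -0.60. The minor chains Col4a3, Col4a4 and Col4a5 ranged from 1.6 to 33.4 and were too dim to test.

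In the stromal matrix, 1 of 24 probe sets tested rose and 1 fell. The windows upstream of the pair, Col3a1 at chr1:45311288-45311537 (plus strand) and Bgn at chrX:73483351-73483600 (plus strand), are shown in the same way because these were the stromal members that passed.
Col3a1: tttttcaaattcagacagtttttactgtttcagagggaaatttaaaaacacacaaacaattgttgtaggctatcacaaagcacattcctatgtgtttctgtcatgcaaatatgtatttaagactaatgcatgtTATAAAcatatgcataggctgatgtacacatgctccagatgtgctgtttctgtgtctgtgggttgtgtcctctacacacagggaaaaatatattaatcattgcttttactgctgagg
Bgn: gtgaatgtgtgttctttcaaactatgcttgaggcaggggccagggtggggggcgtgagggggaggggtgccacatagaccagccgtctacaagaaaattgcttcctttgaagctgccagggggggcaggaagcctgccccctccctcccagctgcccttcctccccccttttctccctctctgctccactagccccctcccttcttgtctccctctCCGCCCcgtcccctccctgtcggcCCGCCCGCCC
The Col3a1 window is 35.2% G and C with 1 TATA box, and the Bgn window is 64.4% G and C with 3 GC boxes, of which the last 2 overlap.

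Of the 8 fibrillar collagen probe sets tested, 1 passed. Col3a1 encodes type III collagen, which accompanies type I in stretchable tissues and is laid down early in scars. Its brightest probe set read 107.2 and 94.3 against 203.2 and 269.7, 2.33-fold higher with no overlap (1.22 ± 0.29 SE, adjusted p = 0.0418). Quantile normalization (adjusted p = 0.0839) and the higher floor (adjusted p = 0.0570) each ended the call. So did a fit without a variance trend (adjusted p = 0.0504) and the scanner type as a block (adjusted p = 0.0849). Without wild-type 2 the log2 difference was 1.12, and the call held with probe sets chosen again but not on the same probe sets. A further Col3a1 probe set read 44.0 and 28.6 against 57.0 and 49.8 (0.59 ± 0.41 SE, adjusted p = 0.381).

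Type I collagen, the main collagen of scar, did not pass in either chain. Col1a1 gave log2 differences of 0.50 ± 0.34 SE (adjusted p = 0.366) and 0.14 ± 0.30 SE (adjusted p = 0.793) from its probe sets. Col1a2 gave -0.74 ± 0.27 SE (adjusted p = 0.124) and -0.19 ± 0.34 SE (adjusted p = 0.736), so the measured differences of the chains of this trimer had opposite signs and none was called. Of the type V chains, which start fibrils, Col5a1 overlapped between groups with its tested probe set (228.6 and 277.2 against 197.4 and 278.4), as did Col5a2 (163.4 and 40.1 against 180.2 and 75.4). A dim Col5a1 probe set that was not tested read 8.5 and 23.8 against 38.0 and 44.0, without overlap. Col2a1, Col11a1 and Col11a2, collagens of cartilage, read at most 36.7 on any array.

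None of the 10 probe sets of other collagens passed; limma put 2 of them at an unadjusted p under 0.05. These were Col6a2, a chain of the beaded filaments around cells, at 118.2 and 108.6 against 34.1 and 73.6 (-1.18 ± 0.44 SE, adjusted p = 0.129), and Col26a1 at 55.9 and 87.0 against 36.0 and 28.1 (-1.13 ± 0.41 SE, adjusted p = 0.124). The sister chains of Col6a2 lay closer to their wild-type level, Col6a1 at 188.6 and 203.1 against 171.1 and 179.1 and Col6a3 at 124.4 and 136.2 against 116.6 and 91.8. Col14a1, which sits on fibril surfaces, read 94.9 and 85.9 against 138.7 and 128.4, separate groups with a log2 difference of 0.56 ± 0.29 SE (adjusted p = 0.240). Of these 10 probe sets 7 were lower in both PEPCK-TAg arrays than in both wild-type arrays and 1 was higher, where 26.5% and 33.3% of all probe sets tested were lower and higher in this way. Their median was -0.31, or -0.58 under quantile normalization.

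Among the matrix proteoglycans and glycoproteins Bgn, Dcn and Fn1 were bright, and 1 of 6 probe sets tested passed. Bgn, the small proteoglycan biglycan that binds collagen and TGF-beta, read 1314.6 and 1724.7 in the wild-type pair with its brighter probe set, against 497.8 and 455.0 in the PEPCK-TAg pair. The groups lay well apart, 3.17-fold (-1.66 ± 0.25 SE, adjusted p = 0.00854), and the difference was -1.40 in the pair of 1 scan day. The call held under quantile normalization and under every floor and filter tried except no filter at all (adjusted p = 0.0832), and was lost with the station as a block or a PEPCK-TAg array left out. A further Bgn probe set gave -0.45 ± 0.28 SE (adjusted p = 0.323), on signals of 379.7 and 272.1 against 246.3 and 226.2.

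Its relative Dcn, decorin, which regulates fibril width, read 1904.8 and 1590.1 against 1270.3 and 1291.0 (-0.44 ± 0.22 SE, adjusted p = 0.237). Fn1, fibronectin, a plasma protein of hepatocytes as well as a matrix protein, read 1065.0 and 853.0 against 704.6 and 654.9 (-0.49 ± 0.24 SE, adjusted p = 0.219). Both were lower on each PEPCK-TAg array than on either wild-type array, by less than the test could call. Lum, lumican, overlapped at 153.3 and 104.1 against 153.5 and 123.3. Sparc, a collagen-binding glycoprotein of remodelling tissue, read 106.1 and 268.8 against 280.8 and 660.9, a 2.55-fold difference with wide spread inside each group (1.35 ± 0.56 SE, adjusted p = 0.161). The Sparc value depended on single arrays: leaving out wild-type 1 gave 0.68, PEPCK-TAg 2 gave 0.73 and PEPCK-TAg 1 gave 1.97. With wild-type 2 left out it was 2.02 and passed (adjusted p = 0.0164 on the same probe sets), as it did with the scanner type as a block (adjusted p = 0.0209). Fbn2, Thbs2 and Thbs3 stayed between 6.4 and 45.0 and went untested.

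Of 15 integrin probe sets tested, covering 9 of the 19 genes, 1 rose and 0 fell, and limma put 1 at an unadjusted p under 0.05. Itgb2, the beta2 subunit (CD18) of leukocyte integrins, read 35.6 and 10.2 against 154.9 and 200.6. The groups did not overlap, and the rise was at least 9.07-fold (3.18 ± 0.60 SE, adjusted p = 0.0190), since wild-type 2 lay under the floor. It was 2.31 on the log2 scale without wild-type 2 and 4.04 without wild-type 1, on the same probe sets, and 2.09 with the higher floor. Itgb2 had reached the filter level in PEPCK-TAg liver only.

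Itgb2 works only with an alpha partner. Itgax (CD11c) read 116.7 and 94.4 against 113.2 and 153.2 (0.33 ± 0.31 SE, adjusted p = 0.525), Itgal (CD11a) 37.5 and 12.9 against 38.6 and 50.2 without a test, and Itgam (CD11b) 6.1 and 6.0 against 8.9 and 10.3, below the floor on all 4 arrays. Beside the rise of Itgb2, 9 of 19 leukocyte markers tested rose and 0 fell in PEPCK-TAg liver, where 9.1% and 3.4% of all probe sets tested did. The markers' median log2 difference was 1.38. The 9 that rose included the leukocyte phosphatase Ptprc (38.5 and 13.3 against 184.8 and 107.0) and the calprotectin subunits S100a8 and S100a9. Of these 9, 6 had reached the filter level in PEPCK-TAg liver only, the 3 named genes among them, so their count is a description, as for Itgb2. The signals of the 20 leukocyte markers on the array summed to 2859 and 2669 against 6646 and 8433, with 0 markers at the floor throughout. Much of that rise came from S100a8 (35.5 and 23.8 against 957.8 and 2066.6), S100a9 (9.3 and 5.3 against 1018.6 and 1461.3) and Mpo (3.2 and 2.2 against 208.0 and 498.2). Lcp1 was lower without overlap (893.9 and 800.1 against 652.5 and 606.0), though not past the threshold. The sums thus do not measure leukocyte signal in general. The part of these cells in the Itgb2 result was not tested.

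None of the other tested integrin subunits of matrix receptors passed. Itgb1, the common beta1 subunit of matrix receptors, read 3277.2 and 2932.9 against 3727.8 and 3490.3 (0.22 ± 0.21 SE, adjusted p = 0.538). Itgav, the alphav subunit of vitronectin receptors, read 1009.4 and 1010.2 against 1357.2 and 1048.7 with its brightest probe set (0.24 ± 0.24 SE, adjusted p = 0.540). A dimmer tested probe set read 50.6 and 82.4 against 74.5 and 81.3 (0.27). A further one, not tested, read 12.9 and 3.0 against 20.8 and 32.8, without overlap. The Itgav probe sets thus differed widely in level, and which of them reads the gene was not tested. Itgb5, a partner of alphav, read 504.0 and 462.8 against 664.1 and 543.6 with its brighter probe set (0.31 ± 0.24 SE, adjusted p = 0.423) and gave -0.57 ± 0.36 SE with the other. Itga3, a laminin receptor subunit, gave 0.05 and -0.24 from its probe sets. Itga7, a laminin receptor of muscle, read 64.6 and 145.5 against 15.8 and 60 with 1 probe set (-1.66 ± 0.71 SE, adjusted p = 0.173), while its other tested probe sets gave 0.23 and -0.33. The -1.66 of that probe set became -0.69 on leaving out PEPCK-TAg 1, -1.07 for wild-type 2, -2.24 for wild-type 1 and -2.62 for PEPCK-TAg 2. In the fit lacking wild-type 1 it passed where probe sets were chosen again (adjusted p = 0.0205) and not on the same probe sets (adjusted p = 0.0580).

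Of the leukocyte and platelet subunits, Itgb7 overlapped between groups at 144.0 and 268.2 against 143.9 and 202.2, and Itgb2l, a relative of Itgb2, read 52.9 and 40.3 against 57.2 and 104.9 (0.74 ± 0.43 SE, adjusted p = 0.287). Itgb3 of platelets lay under the floor or at it on all arrays, at 3.1 and 4.1 against 10.6 and 5.9. Itga6, the alpha6 subunit of laminin receptors, read 15.2 and 2.0 against 38.2 and 46.7 and was not tested, as 1 array alone exceeded the filter level. Its partner Itgb4 read at most 16.1. In all, 10 integrin genes had no probe set tested, and their values give levels near background and no fold.

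**Figure D4:**
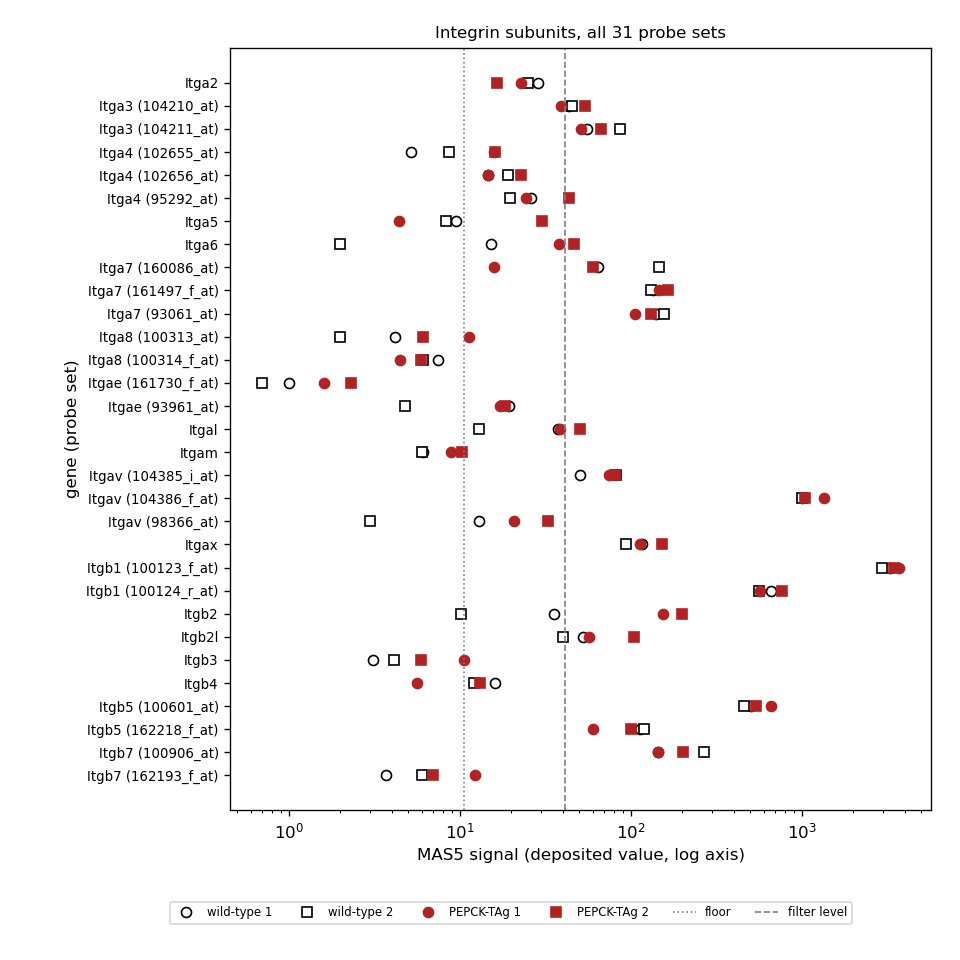
Deposited MAS5 signal (log axis) of all 31 integrin probe sets on the 4 arrays; open symbols are wild-type, filled symbols PEPCK-TAg, dotted line the floor of 10.6, dashed line the filter level of 41.3. Itgb2 separates the groups widely, whereas the groups lie close together for the brightest probe sets of Itgb1, Itgav and Itgb5.

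The symbol rule also took in Itgb1bp1, a cytoplasmic protein that binds the beta1 tail and is itself no integrin. Its 3 probe sets disagreed: 1 read 89.7 and 110.6 against 177.9 and 232.6 (1.03 ± 0.30 SE, adjusted p = 0.0724), and the others gave 0.24 and -0.23. Without wild-type 2 the first passed where probe sets were chosen again (adjusted p = 0.0446) and not on the same probe sets (adjusted p = 0.0639).

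Of the 12 member genes with several probe sets tested, 4 had probe sets of opposite sign (Itga3, Itga7, Itgb5 and Itgb1bp1) and 4 had 1 probe set past the threshold beside others that were not (Bgn, Col3a1, Col18a1 and Lama5). In each of those last 4 genes every tested probe set pointed the same way.

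**Figure D5:**
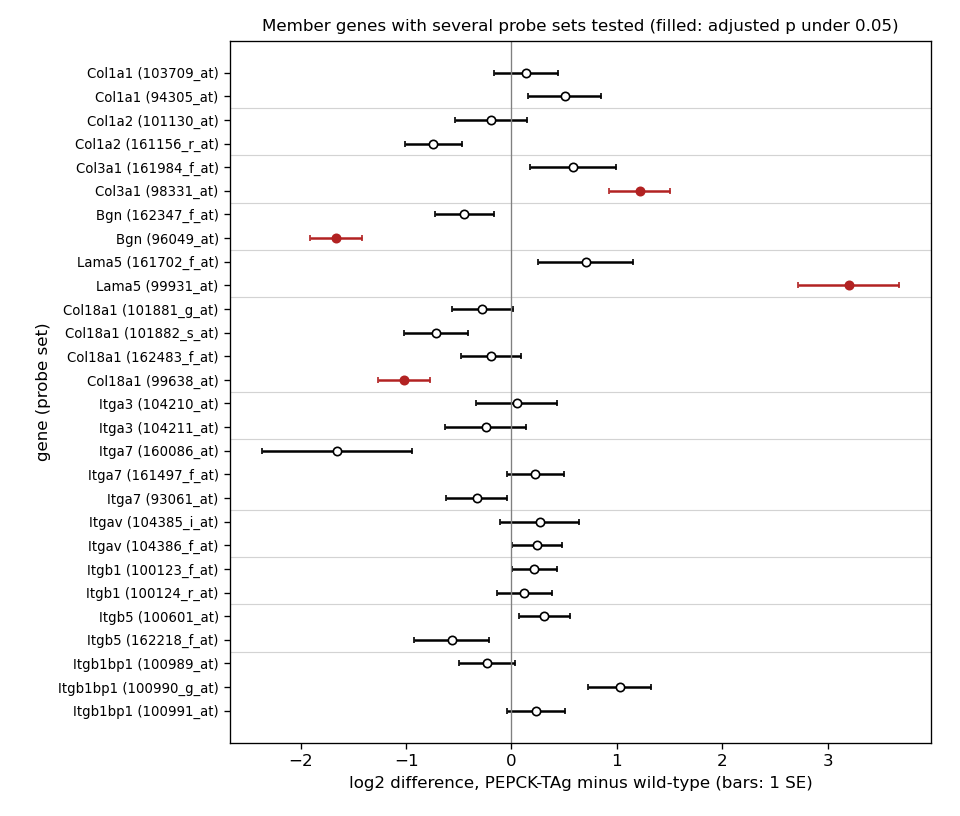
Log2 difference with 1 SE (x axis, PEPCK-TAg minus wild-type, 2 arrays a group) for each tested probe set of the 12 member genes that had several; filled points passed an adjusted p of 0.05. Bgn, Col3a1, Col18a1 and Lama5 each have 1 filled point and further open points on the same side of 0.

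Genes that act with the members were read from lists by their brightest probe set. Of 9 collagen-processing genes tested, which hydroxylate, fold, trim and crosslink collagen, 0 passed (median -0.15). Of 9 genes of TGF-beta signalling tested, the pathway that induces stromal collagen, 0 passed (median -0.012), and Tgfb1 and Tgfbr2 lay below the floor on all 4 arrays. Limma put 0 of the collagen-processing and 0 of the TGF-beta genes past the threshold, and 1 and 3 of them at an unadjusted p under 0.05. Of all 7877 probe sets tested, 2394 had such a p, so these counts are no sign of a change particular to either list. These were P4hb (-0.71) of the former, and Smad2 (0.68), Smad4 (0.69) and Ltbp4 (-0.82) of the latter. Smad7 and Tgfbi were also higher without overlap, and Ltbp3 and Tgfb3 lower. The small TGF-beta median thus covers differences in both directions.

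Among 16 integrin adhesion genes tested, 2 rose and 0 fell (median 0.30). Lims1, the PINCH adaptor of the integrin-linked kinase, read 155.1 and 137.9 against 616.6 and 449.8 (1.85, adjusted p = 0.00882), and Fermt3, the kindlin of blood cells, 82.4 and 63.0 against 192.1 and 398.9 (1.94, adjusted p = 0.0283). Both groups were separate for each gene. Among 10 other basement membrane proteoglycans and matrix receptors, 1 rose and 1 fell. The collagen receptor Ddr1 rose (31.1 and 37.9 against 83.1 and 107.3, adjusted p = 0.0467), having passed the filter through PEPCK-TAg liver only. Sdc4, the heparan sulfate proteoglycan syndecan-4 of hepatocytes, fell from 3796.9 and 6030.3 to 1361.3 and 1378.8 (-1.81, adjusted p = 0.00978). Among 5 other stromal matrix genes tested, elastin (Eln) rose, from 168.3 and 158.3 to 839.4 and 478.9 (1.96, adjusted p = 0.0129). These lists are short, and their counts stand beside the 9.1% and 3.4% of all probe sets that rose and fell.

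Markers of other cells were read in the same way, and their counts too stand beside the 9.1% and 3.4% of all probe sets. A gene that reached the filter level in PEPCK-TAg liver only could hardly be tested without a rise. Of 7 stellate cell and fibroblast markers tested, 1 rose (Lgals1) and 0 fell, with a median of -0.31; the 14 on the array summed to 1298 and 1393 against 1291 and 1305. Of the others tested, S100a6 and Tagln were higher without overlap (log2 differences 0.81 and 0.33). Reln, Timp1 and Pdgfra were lower without overlap (-0.73, -0.69 and -0.49), so the near-equal sums cover differences in both directions. Des, Pdgfrb and Vim read at most 46.7 on any array and were not tested, with Pdgfrb 1.87-fold lower without overlap. Acta2 read 10.4 and 10.8 against 54.0 and 29.8, without a test. Thy1, also untested, was at least 4.55-fold higher without overlap, with both wild-type arrays at the floor. Of 13 endothelial markers tested, 1 rose (Icam2, which passed the filter through PEPCK-TAg liver only) and 0 fell, with a median of 0.35 and sums of 1666 and 1428 against 1794 and 1949 over 14. Of the rest tested, Lyve1, Vwf, Cdh5 and Stab1 were higher without overlap (1.10, 0.91, 0.82 and 0.11). Flt4, Flt1 and Ramp2 were lower without overlap (-0.41, -0.26 and -0.26). Of 6 genes tested from a bile duct and progenitor list, 4 rose (Krt18, Cldn7, Prom1 and Cd24a). Cldn7 and Prom1 passed the filter through PEPCK-TAg liver only. The 10 on the array summed to 3373 and 3287 against 7142 and 9927. Those sums came mostly from Krt8 (1947.8 and 1833.1 against 2443.8 and 3475.8), Krt18 (1227.6 and 1253.9 against 2357.8 and 2928.1) and Cd24a (59.6 and 75.1 against 1970.8 and 2766.3). These genes are not particular to bile ducts, so the sums do not measure bile duct signal. Krt19 lay below the floor on all arrays, and Krt7 and Epcam read at most 30.0. Of 4 platelet markers tested, 2 rose (Gp1bb and Gp9, both of which passed the filter through PEPCK-TAg liver only), with sums of 244.0 and 243.2 against 444.2 and 601.4 over 6, of which Vwf is also in the endothelial list. Gp5 of the same list read 44.8 and 44.4 against 21.2 and 23.2, 2.01-fold lower without overlap but not past the threshold (adjusted p = 0.161), and Pf4 was too dim to test. The part of any of these cells in the laminin, nidogen and collagen results was not tested.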

How the data were processed

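Total liver RNA of 2 wild-type and 2 PEPCK-TAg samples was hybridised to 1 array each. The authors deposited 1 MAS5 intensity per probe set on a linear scale (MAS5 per the submitters' processing notes, its version not given in the sources used here), and the trimmed means of the deposited values are equal; detection calls were not used here. Arrays were rescaled without the 66 control probe sets (at most 0.102% change), given a minimum of 10.6, the 20th percentile, and put on the log2 scale. Probe sets above the 40th percentile (41.3) on at least 2 arrays were tested with limma 3.58.1 in R 4.3.3 (lmFit, eBayes with a trend, two-sided, Benjamini-Hochberg over 7877 probe sets, 6.60 degrees of freedom). The script was tested on simulated data. Exact permutation of 2 against 2 arrays cannot go below p = 0.333. Folds with the lower group at the floor are lower bounds. Fluidics station, scanner type, chip lot and scan day were read from the deposited array settings, per the file headers. Symbols came from the platform annotation (10833 probe sets with 1 symbol, 10817 of them matched to RefSeq, 0 changed).

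The members and lists were chosen with earlier results of these data known. Statistics are given for every member past the threshold, for up to 3 more of smallest p in each class and for members that differ by 2-fold without overlap and, chosen after their values were seen, for partner chains of these; others are given as values. Leaving out arrays on the same probe sets was added after seeing the data, as was recounting the leukocyte list under the alternatives. The other alternatives were quantile normalization, other floors, filters and thresholds, each array left out, the replicate number, station and scanner as blocks, and no trend.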

Additional observations from a re-analysis of the deposited data

How the results depend on the processing

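With 2 arrays a group and many members near background, the number of arrays and the signal over background limit the precision of every call here. Across the 28 member probe sets followed under the alternatives, 363 values kept their direction and their side of the threshold, 62 lost a call, 15 gained one and 8 changed sign. The sign changes were those of Lamc1 (0.085 without wild-type 1, 0.22 without PEPCK-TAg 2 and with the station as a block) and Lamb1 (-0.022 without wild-type 2 and with the scanner type as a block).

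The 5 rises and 4 falls among the members became 8 and 7 with the replicate number as a block, 3 and 2 with a filter at the 60th percentile, 1 and 0 with no filter (11 and 7 at limma's unadjusted p under 0.05) and 0 and 0 with the station as a block (5 and 6); 1 fall was left with a floor at the 40th percentile. Over all probe sets, 717 rises and 268 falls became 1240 and 633 with the replicate number as a block, 129 and 36 with no filter, 0 and 0 with the station as a block (874 and 558 at an unadjusted p under 0.05), and 1108 and 513 at an adjusted p of 0.1. The 9 leukocyte markers that rose became 2 with no filter, 4 with a filter at the 60th percentile and 0 with the station as a block (10 at an unadjusted p under 0.05). Deviations of same-numbered arrays had a correlation of 0.25, but the labels do not say that a number pairs the arrays. Station and scanner blocks take PEPCK-TAg 2 and wild-type 2 out of the contrast. For other lost calls the cause was not tested.

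Class medians moved as follows. Fibrillar collagens, at 0.32, gave 0.036 under quantile normalization, 0.017 with no filter and with a filter at the 60th percentile, and 0.065 with the scanner block. Other collagens, at -0.31, gave -0.58, -0.14 and -0.16 under the first 3 of these. Stromal proteoglycans and glycoproteins, at -0.45, gave -0.14 with no filter. Laminins and nidogens, at 0.52, gave 0.18 with no filter, 1.48 with a filter at the 60th percentile and -0.022 with the scanner block. Basement membrane collagens, at -0.28, gave -0.60 with the station block, and integrins, at 0.22, gave 0.0091 under quantile normalization.

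Each array was then left out in turn, with probe sets chosen again from the others and the lone array of a group assumed to vary like the rest; rises among the members ranged from 0 to 7 and falls from 0 to 4, over all probe sets from 88 to 1207 and from 39 to 482, and rises among leukocyte markers from 0 to 11. Medians ranged from 0.020 to 0.53 (fibrillar collagens), -0.29 to -0.15 (other collagens), -0.61 to -0.26 (proteoglycans and glycoproteins), -0.31 to 1.11 (laminins and nidogens), -0.60 to -0.37 (basement membrane collagens), 0.0052 to 0.24 (integrins), and the log2 differences of Lamb1 from -0.022 to 1.06 and of Lamc1 from -0.70 to 0.22. The zeros among members came without PEPCK-TAg 1 (3 rises and 5 falls at limma's unadjusted p under 0.05) and without PEPCK-TAg 2 (2 and 6). On the same probe sets as before, rises among the members ranged from 0 to 5 and falls from 0 to 3, over all probe sets from 0 to 1048 and from 0 to 400, and rises among leukocyte markers from 0 to 11. Medians ranged from 0.020 to 0.53 (fibrillar collagens), -0.34 to -0.15 (other collagens), -0.61 to -0.26 (proteoglycans and glycoproteins), -0.022 to 0.52 (laminins and nidogens), -0.60 to -0.37 (basement membrane collagens), 0.11 to 0.24 (integrins), and the log2 differences of Lamb1 from -0.022 to 1.06 and of Lamc1 from -0.70 to 0.22. There the zeros of all these counts came without PEPCK-TAg 1 or 2, and 7 rises and 5 falls of members, and 5 and 6, had an unadjusted p under 0.05.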
